A study of Mus musculus with 14 samples.

Results

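Collagen genes were compared in adipocytes of 3 mouse fat depots on 2 diets. The members are all genes whose symbol reads Col, a type number, a and a chain number. They number 44 of the 38553 genes listed. By textbook class, 11 encode fibrillar chains, 6 the type IV chains of basement membranes, 6 type VI chains, 3 chains of the network types VIII and X, 9 fibril-associated chains (FACIT), 2 the multiplexin types XV and XVIII, 4 transmembrane chains, 1 the anchoring fibril type VII, and 2 the remaining types XXVI and XXVIII. In the white libraries 28 of the 44 reached 0.5 FPKM (fragments mapped to a gene, scaled by transcript length and by the mapped total of the library) in at least 3 libraries and were tested. Of the 28, 3 reached that level in epididymal libraries alone (Col6a5, Col6a6 and Col4a6, the last in the normal-diet ones alone). The 16 others include Col9a1, Col9a2 and Col19a1, which were listed at 0 in all 14 libraries.

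The cells came from male C57BL/6 mice, with no transgene or mutation named, given regular chow (normal diet) or D12492 from Research Diets (high-fat diet) over the 16 weeks that followed weaning at 3 weeks. Epididymal fat (EPI, visceral white), inguinal fat (SUB, subcutaneous white) and interscapular brown fat (BAT) were digested with collagenase, and RNA was taken from the layer of cells that floated. White fat gave 12 libraries, 3 per depot and diet with the numbers 0 to 2, and brown fat gave 2, 1 on each diet. Every library holds tissue pooled from 3 to 5 mice, and the white ones are described as biological replicates, so their spread is a spread between pools and not between single mice. The read depth per library is unknown.

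Collagen chains wind around each other into a rope-like helix that is modified in the endoplasmic reticulum, secreted, trimmed and cross-linked outside the cell. Fibrillar types I, III and V form the fibrils that bear tension between cells, type IV forms the sheet of the basement membrane that encloses each adipocyte and each capillary, and type VI forms beaded microfilaments that link the sheet to the fibrils. Multiplexins XV and XVIII sit at the outer face of basement membranes, and FACIT chains decorate fibril surfaces. The adipocyte rests in its own basement membrane, and the matrix around it is remodelled when the cell enlarges.

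The floating layer carried RNA of adipocytes and of other cells. Adiponectin (Adipoq), the defining adipocyte marker, lay between 919 and 2536 FPKM in the 14 libraries, and Ucp1, the brown fat uncoupling protein, stood at 121 and 503 FPKM in the brown libraries, against at most 36.2 FPKM in white ones (inguinal high-fat replicate 2). The inguinal normal-diet libraries stood apart from each other. The 8 lymphocyte markers summed to 529, 60.9 and 702 FPKM in its replicates 0, 1 and 2, against 3.12 to 15.3 in the other white libraries, and its replicate 1 had the highest sum of the 12 fibroblast and preadipocyte markers (1365 FPKM). Inguinal results are therefore also given without these libraries. In bulk RNA, fewer cells of a type and less RNA per cell cannot be told apart.

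Promoter sequence is shown for 5 members whose annotated start let 250 bases be read upstream of the transcribed part, 3 that rose with the high-fat diet in both white depots (Col6a1, Col6a2 and Col18a1) and 2 abundant fibrillar genes that did not pass the test in either (Col1a2 and Col3a1). All are from RefSeq on GRCm38.p6, 5′ to 3′ on the strand of the gene, with matches to 3 motifs in capitals. The CCAAT box was searched as CCAAT. The TATA box was searched as the letters TATAAA. The GC box was searched as the letters GGGCGG. Each was searched on both strands, no 2 of the motifs contain each other, and a match on the opposite strand appears as the reverse complement.
Col6a1, chr10:76726045-76726294, minus strand: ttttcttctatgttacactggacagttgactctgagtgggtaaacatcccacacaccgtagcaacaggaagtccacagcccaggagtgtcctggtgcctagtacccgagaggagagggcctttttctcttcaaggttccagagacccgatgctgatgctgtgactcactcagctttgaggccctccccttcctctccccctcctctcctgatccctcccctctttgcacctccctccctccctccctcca
Col6a2, chr10:76623631-76623880, minus strand: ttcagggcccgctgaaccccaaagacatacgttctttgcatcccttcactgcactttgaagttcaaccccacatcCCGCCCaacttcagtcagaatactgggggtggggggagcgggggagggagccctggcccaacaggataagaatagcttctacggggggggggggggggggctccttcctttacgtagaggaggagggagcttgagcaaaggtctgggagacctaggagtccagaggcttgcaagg
Col18a1, chr10:77166531-77166780, minus strand: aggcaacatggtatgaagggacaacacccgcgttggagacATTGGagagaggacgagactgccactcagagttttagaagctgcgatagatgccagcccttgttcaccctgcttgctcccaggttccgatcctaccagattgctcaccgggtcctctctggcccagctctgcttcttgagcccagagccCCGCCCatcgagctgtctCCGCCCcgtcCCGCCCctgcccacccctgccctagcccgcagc
Col1a2, chr6:4505368-4505617, plus strand: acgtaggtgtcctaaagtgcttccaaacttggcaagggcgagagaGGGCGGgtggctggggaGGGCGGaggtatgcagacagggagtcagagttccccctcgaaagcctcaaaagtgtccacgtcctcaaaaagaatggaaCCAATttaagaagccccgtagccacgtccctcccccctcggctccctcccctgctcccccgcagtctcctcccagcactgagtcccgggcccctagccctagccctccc
Col3a1, chr1:45311288-45311537, plus strand: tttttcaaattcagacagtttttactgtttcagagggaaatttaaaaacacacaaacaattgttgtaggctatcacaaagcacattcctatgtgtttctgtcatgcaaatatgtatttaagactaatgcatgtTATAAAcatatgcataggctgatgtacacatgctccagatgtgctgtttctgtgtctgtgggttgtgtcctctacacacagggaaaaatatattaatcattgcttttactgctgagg

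The Col6a1 window held none of the 3 motifs. The Col6a2 window held 1 GC box on the opposite strand. The Col18a1 window held 3 GC boxes and 1 CCAAT box, all on the opposite strand. The Col1a2 window held 1 CCAAT box and 2 GC boxes on the strand of the gene, and the Col3a1 window held 1 TATA box and is poor in G and C (35.2%, against 56% to 62% in the other 4). So neither the 3 that rose nor the 2 that did not pass share one motif among themselves. Of the 44 members, 35 had an entry in the promoter table. A GC box was present upstream of 60% of these 35 members and in 32.7% of all 32851 promoter windows of the same length, a CCAAT box in 37.1% against 33.8%, and a TATA box in 14.3% against 12.4%. A member with several windows counted once if any held the motif (38 windows for the 35 members). The background was counted by window, which can raise the member shares beside it. A match is only a match of letters.

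Some members lie side by side in the genome. Col6a2 and Col6a1 are 85161 bases apart on chromosome 10. Col6a6, Col6a5 and Col6a4 follow each other on chromosome 9, with gaps of 27823 and 27854 bases. Col3a1 and Col5a2 are 24624 bases apart on chromosome 1. Among the type IV genes, Col4a1 and Col4a2 lie head to head on chromosome 8, with annotated spans that overlap at their starts. Col4a6 and Col4a5 lie head to head on chromosome X, with starts 1343 bases apart. The spans of Col4a4 (82448419 to 82587034) and Col4a3 (82586921 to 82722059) on chromosome 1 overlap too.

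In epididymal adipocytes the high-fat diet went with a broad change of collagen RNA. Of the 28 members tested, 12 rose and 5 fell (limma, Benjamini-Hochberg adjusted p under 0.05 over 14959 genes). That is 60.7% of the members, against 19.5% of all genes tested (12.2% rose and 7.35% fell). The median log2 difference of the 28 was 0.26, against 0.07 for all genes. The high-fat and normal-diet libraries did not overlap for 21 of the 28 members, against 42.4% of all genes. The main chains of types IV, V, VI, XV and XVIII rose, and the chains of types I and III did not pass. The minor chains Col4a5, Col4a6, Col6a5 and Col6a6 fell, as did Col28a1. Col4a6 and Col6a6 would not have been tested without the epididymal normal-diet libraries, so part of the count that fell was favoured by the selection.

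In inguinal adipocytes 11 of the 28 rose and 1 fell (42.9%, against 19.5% of all genes, of which 9.3% rose and 10.2% fell). The median log2 difference was 0.75, against -0.01 for all genes, and the groups did not overlap for 15 of 28 members, against 33.1% of all genes. All 11 had also risen in epididymal adipocytes, which is 100% of the inguinal and 91.7% of the epididymal list. Of all genes that rose in either depot, the 695 shared ones were 50% of the inguinal and 38.2% of the epididymal list. The inguinal count depended on single libraries: it was 7 without normal-diet replicate 0, 13 without replicate 1 and 7 without replicate 2, and it was 8, 5 and 7 without high-fat replicate 0, 1 and 2. It was also 7 (3 higher and 4 lower) when the 2 libraries with high lymphocyte markers were left out together, which leaves normal-diet replicate 1 alone in its group. Of the 11 that rose, 3 then still passed (Col15a1, Col16a1 and Col18a1, log2 2.29, 1.99 and 1.49), while the log2 differences of the other 8 lay between 0.22 (Col6a1) and 1.23 (Col5a3).

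**Figure D1:**
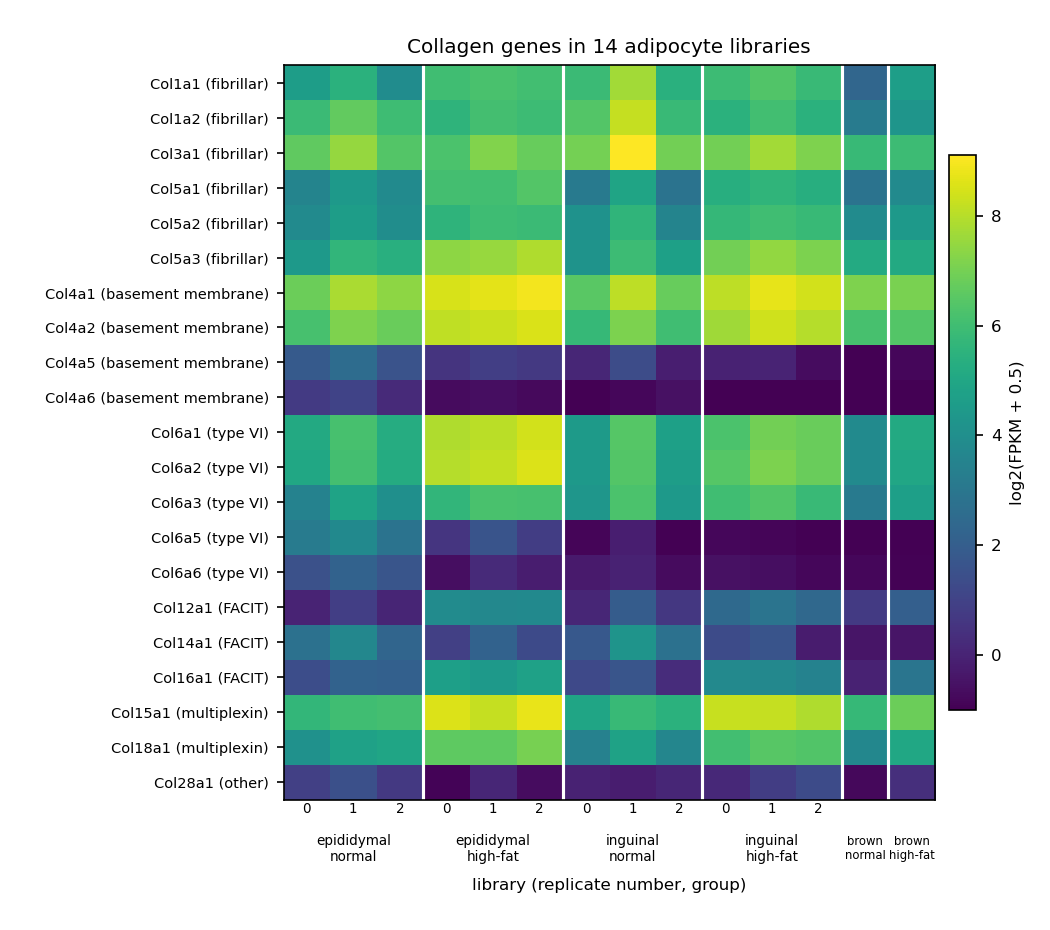
Each row is a collagen gene with its class, each column 1 of the 14 libraries (replicate number below, groups separated by white lines), and the colour is log2(FPKM + 0.5). Col4a1, Col4a2, Col6a1, Col6a2, Col15a1 and Col5a3 are brighter in the high-fat white libraries than in most normal-diet ones, while the 3 top rows (Col1a1, Col1a2 and Col3a1) are brightest in inguinal normal-diet replicate 1.

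Types I and III, the bulk fibril collagens of connective tissue, did not pass the test in either white depot. Col1a1 (ENSMUSG00000001506, chromosome 11, 94936224 to 94953042) stood at 24.1, 43.9 and 14.8 FPKM in epididymal normal-diet replicates 0, 1 and 2, the order used throughout, and at 64, 72.9 and 65.3 FPKM on the high-fat diet. In inguinal libraries the values were 59.3, 205 and 42.4 on the normal and 60.9, 81.1 and 56.6 FPKM on the high-fat diet. What a replicate number marks is not stated, so fits with it as a block, here and below, pair no mice across diets. No epididymal normal-diet library reached the lowest high-fat one, yet the difference of log2 1.41 (SE 0.50) had an adjusted p of 0.0698. It passed in 5 other fits: without epididymal normal-diet replicate 1 (log2 1.81, adjusted p = 0.0385), with the replicate number as a block (0.0155), with only the groups compared (0.0414), with array weights (0.024) and without inguinal normal-diet replicates 0 and 2 (0.00849).

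Col1a2 (ENSMUSG00000029661, chromosome 6, 4505618 to 4541543), which encodes the partner chain of type I, had 59.4, 103 and 61.4 FPKM on the normal and 46.6, 67.4 and 60.6 FPKM on the high-fat diet in epididymal libraries. In inguinal libraries it had 84.9, 294 and 57.4 on the normal diet and 43.3, 66.3 and 43 FPKM with high-fat feeding. Col3a1 (ENSMUSG00000026043, chromosome 1, 45311538 to 45349706), the type III chain, had 99.3, 183 and 85.1 on the normal diet and 76.3, 147 and 108 FPKM with high-fat feeding in epididymal and 127, 550.5 and 124 on the normal diet and 123, 207 and 141 FPKM with high-fat feeding in inguinal libraries. The diets overlapped for both genes in epididymal libraries, and inguinal normal-diet replicate 1 was far above every other library for all 3 type I and III genes. The inguinal log2 difference of Col1a2 was -1.17 (SE 0.48, adjusted p = 0.105) and it passed in 4 other fits, without normal-diet replicate 2 (log2 -1.66, adjusted p = 0.033), without replicates 0 and 2 (0.00426), with the replicate block (0.0305) and with quantile normalization (0.05 after rounding). For Col3a1 it was -0.43 (SE 0.51, adjusted p = 0.596), and it passed without replicates 0 and 2 (adjusted p = 0.0434).

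Type V, a quantitatively minor fibrillar type that starts fibrils and sets their width, rose in both depots through all 3 of its chains. Col5a3 (ENSMUSG00000004098, chromosome 9, 20770050 to 20815117) stood at 21.3, 49.9 and 41.1 FPKM in epididymal normal-diet libraries and at 166, 188 and 239 on the high-fat diet, and at 17.8, 60.8 and 25.9 on the normal diet and 122, 176 and 137 FPKM with high-fat feeding in inguinal ones. The diets did not overlap in either depot. The ratio of group means was 5.28 in epididymal and 4.16 in inguinal adipocytes (log2 2.46, SE 0.41, adjusted p = 0.00129 and log2 2.21, SE 0.41, adjusted p = 0.00388, in this order). Of the 6 fibrillar genes given here it became the highest on the high-fat diet in the epididymal depot, above Col3a1.

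Col5a1 (ENSMUSG00000026837, chromosome 2) had 11.1, 21.5 and 13.6 FPKM in the epididymal normal-diet group and 67.1, 66.3 and 84.6 on the high-fat diet (log2 2.25, SE 0.43, adjusted p = 0.0033). Its inguinal values were 8.52, 29.4 and 6.64 on the normal diet and 40.1, 48.7 and 39.5 FPKM with high-fat feeding (log2 1.79, SE 0.43, adjusted p = 0.014). Col5a2 (ENSMUSG00000026042, chromosome 1) had 13.8, 24.1 and 15 on the normal diet and 47, 61.5 and 58 FPKM with high-fat feeding in epididymal libraries (log2 1.66, SE 0.41, adjusted p = 0.0135), and 17.3, 48.5 and 11.2 on the normal diet and 52.9, 63.8 and 55.2 FPKM with high-fat feeding in inguinal ones (log2 1.41, SE 0.41, adjusted p = 0.032). In both depots every high-fat library was above every normal-diet library for both genes. Col5a2 lost its epididymal call without normal-diet replicate 0 or high-fat replicate 1 (adjusted p = 0.0548 and 0.0526). The inguinal call of Col5a2 was lost in 5 of 6 such fits and that of Col5a1 in 3 of 6. The neighbours Col3a1 and Col5a2 thus differed in whether they passed, although the difference between the genes was not tested.

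Basement membrane type IV split by chain. The common chains Col4a1 and Col4a2, which pair in nearly every basement membrane, rose in both depots. Col4a1 (ENSMUSG00000031502, chromosome 8, 11198423 to 11312889) was the highest collagen gene by FPKM in 5 of the 6 groups, inguinal normal diet being the exception. It stood at 113, 226 and 166 FPKM in epididymal normal-diet and 362, 407 and 481 in high-fat libraries, and at 90.8, 274 and 107 on the normal diet and 275, 424 and 341 FPKM with high-fat feeding in the inguinal groups. Col4a2 (ENSMUSG00000031503, chromosome 8, 11312805 to 11449287) stood at 71.5, 142 and 110.3 on the normal diet and 279, 312 and 370.3 FPKM with high-fat feeding, and at 54.5, 138 and 64 on the normal diet and 204, 329.5 and 255 FPKM with high-fat feeding. In both genes normal-diet replicate 1 was the highest of its group in each depot.

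The epididymal ratio of means was 2.48 for Col4a1 (log2 1.35, SE 0.38, adjusted p = 0.0261) and 2.97 for Col4a2 (log2 1.61, SE 0.34, adjusted p = 0.00639). The inguinal ratios were 2.2 (log2 1.30, SE 0.38, adjusted p = 0.0331) and 3.08 (log2 1.71, SE 0.34, adjusted p = 0.00606). The diets did not overlap in any of the 4 cases, though inguinal normal-diet replicate 1 came within 1 FPKM of the lowest high-fat library for Col4a1. The Col4a1 call was lost in 5 of 6 fits that left out 1 library in each depot, while that of Col4a2 was kept in all 6 in each depot. The adjusted p of Col4a1 then reached 0.103 in epididymal and 0.115 in inguinal adipocytes.

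Col4a5 (ENSMUSG00000031274) and Col4a6 (ENSMUSG00000031273), both on chromosome X, encode chains restricted to some basement membranes, such as those of the kidney and of smooth muscle. Both were low and fell in epididymal adipocytes. Col4a5 went from 3.14, 5.42 and 2.52 FPKM to 0.932, 1.33 and 1.11 FPKM (log2 -1.32, SE 0.41, adjusted p = 0.0392), and Col4a6 from 1.15, 1.54 and 0.644 to 0.117, 0.153 and 0.104 FPKM (log2 -1.33, SE 0.30, adjusted p = 0.00861). The diets did not overlap for either gene, but Col4a6 was tested only because its 3 epididymal normal-diet libraries reached 0.5 FPKM, so a lower value elsewhere was built into its selection. The Col4a5 call was lost in 5 of 6 fits that left out 1 library, with an adjusted p of up to 0.144. In inguinal libraries Col4a5 had 0.575, 2.08 and 0.397 on the normal diet and 0.474, 0.499 and 0.129 FPKM with high-fat feeding, and neither gene passed there.

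Markers of endothelial cells, which make type IV collagen for capillaries, were lower in the epididymal high-fat libraries. The 11 endothelial markers summed to 616 to 672 FPKM in epididymal normal-diet libraries and to 56.6 to 112 FPKM in high-fat ones. All 11 fell, with none at 0, while Col4a1 and Col4a2 rose in the same libraries. In the inguinal depot the sums were 429 to 806 and 342 to 442 FPKM, and 1 of 11 fell (Flt1). The 9 mural cell markers, of the pericytes and smooth muscle around vessels, gave 1 that rose and 5 that fell in epididymal and 3 that rose and 0 that fell in inguinal adipocytes. The part of these cells in the type IV values was not tested.

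Type VI showed the same kind of split. Col6a1, Col6a2 and Col6a3 encode the classical chains, and the end of the Col6a3 chain is cut off as endotrophin, a fragment described in obese fat. Col6a1 (ENSMUSG00000001119, chromosome 10, 76708792 to 76726044) had 34.6, 71.7 and 38.2 FPKM in epididymal normal-diet and 238, 269.7 and 339.7 in high-fat libraries, a ratio of means of 5.87 (log2 2.60, SE 0.44, adjusted p = 0.00155). Col6a2 (ENSMUSG00000020241, chromosome 10, 76595756 to 76623630) had 31.9, 67.5 and 37 on the normal diet and 255, 285 and 377 FPKM with high-fat feeding, a ratio of 6.72 (log2 2.79, SE 0.45, adjusted p = 0.00112). Each high-fat library was at least 3 times as high as every normal-diet library for both genes. Col6a3 (ENSMUSG00000048126, chromosome 1, 90766860 to 90844001) had 10.5, 28.6 and 15.9 on the normal diet and 50.2, 72.5 and 72 FPKM with high-fat feeding (log2 1.89, SE 0.47, adjusted p = 0.0146), and it lost its call in 3 of 6 fits without 1 library, with an adjusted p of up to 0.0648.

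In inguinal adipocytes Col6a1 went from 22.4, 85.8 and 26.2 to 74.8, 122 and 109.9 FPKM (log2 1.42, SE 0.44, adjusted p = 0.0422), and Col6a2 from 21, 84.1 and 24 to 85.9, 136 and 110.2 FPKM (log2 1.62, SE 0.45, adjusted p = 0.0268). Col6a3 had 19.1, 75.7 and 20.8 on the normal diet and 63.6, 82 and 57.7 FPKM with high-fat feeding and did not pass (log2 1.09, SE 0.47, adjusted p = 0.125). Normal-diet replicate 1 was as high as some high-fat libraries for Col6a1 and Col6a3. Without it Col6a3 passed (log2 1.73, adjusted p = 0.00293), as it did with the replicate block (0.0341) and with array weights (0.0102), whereas without normal-diet replicate 0 Col6a1 and Col6a2 did not (adjusted p = 0.138 and 0.0926). In all, the inguinal call of Col6a1 was lost in 5 and that of Col6a2 in 4 of 6 fits without 1 library. The epididymal diet differences of Col6a1 and Col6a2 exceeded the inguinal ones by log2 1.18 (SE 0.63, adjusted p = 0.301) and 1.17 (SE 0.64, adjusted p = 0.318), which did not pass. Without inguinal normal-diet replicates 0 and 2 they were log2 2.38 and 2.42 (adjusted p = 0.0245 and 0.0221), but that fit rests on replicate 1 alone in its group, which is assumed to vary like the other groups.

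**Figure D2:**
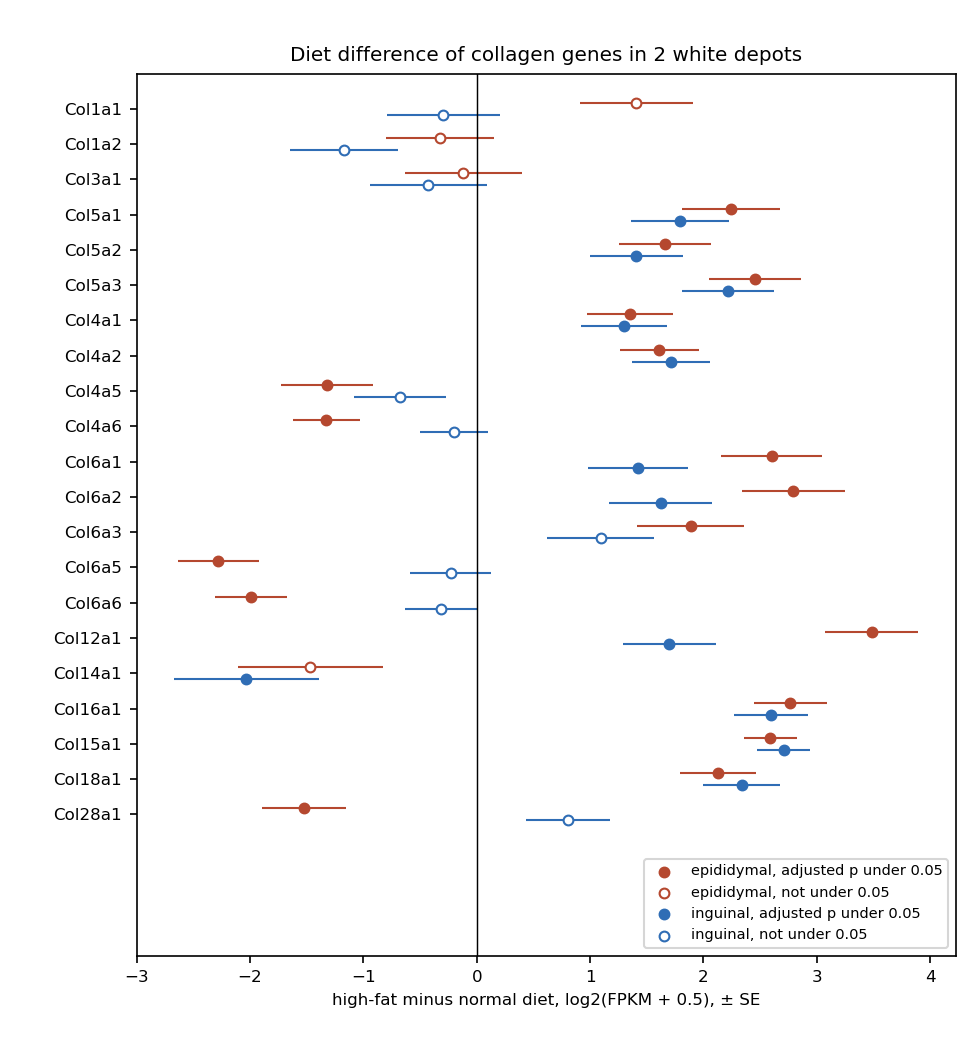
Points give the difference between high-fat and normal diet in log2(FPKM + 0.5) for 21 collagen genes, with bars of 1 SE from limma, in epididymal (red) and inguinal (blue) adipocytes, and filled points have an adjusted p under 0.05. Type V, IV (a1 and a2), VI (a1 and a2), XII, XVI, XV and XVIII chains lie to the right of 0 with filled points in both depots, and Col4a5, Col4a6, Col6a5, Col6a6 and Col28a1 lie to the left with filled points in epididymal adipocytes.

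The chains Col6a5 and Col6a6, which can take the place of Col6a3 in the type VI helix, fell in epididymal adipocytes. Col6a5 (ENSMUSG00000091345, chromosome 9, 105856070 to 105962463) stood at 8.63, 13.5 and 6.74 FPKM on the normal diet and at 0.981, 2.6 and 1.26 FPKM on the high-fat diet, a fall of means by a factor of 5.96 (log2 -2.28, SE 0.36, adjusted p = 9.0e-04). Col6a6 (ENSMUSG00000043719, chromosome 9, 105689417 to 105828246) went from 2.31, 4.05 and 2.67 to 0.144, 0.645 and 0.371 FPKM, by a factor of 7.78 (log2 -1.99, SE 0.32, adjusted p = 9.8e-04). Both calls were kept in all 6 fits that left out 1 library. Col6a6 reached 0.5 FPKM in its 3 epididymal normal-diet libraries, in 1 epididymal high-fat library and in 0 inguinal ones. It would not have been tested without the normal-diet group, so a lower high-fat value was favoured by its selection. In inguinal libraries Col6a5 never exceeded 0.397 FPKM and Col6a6 never exceeded 0.468 FPKM, and both brown libraries were listed at 0 for Col6a5.

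The diet differences of Col6a5 and Col6a6 differed between the white depots, but their levels in the inguinal depot left little room for a fall. Of the 28 members 3 had a different diet effect in the depots, all lower in epididymal (10.7%, against 7.22% of all genes, of which 2.42% were lower). They were Col6a5 (log2 -2.05, SE 0.51, adjusted p = 0.0323), Col6a6 (log2 -1.68, SE 0.45, adjusted p = 0.0434) and Col28a1 (log2 -2.33, SE 0.52, adjusted p = 0.0222). Col6a5 and Col6a6 had entered the test through epididymal libraries alone. Without inguinal normal-diet replicates 0 and 2, which leaves replicate 1 alone in its group, 6 members passed, 6 higher and 0 lower in epididymal, and 0 of the 3 named here were among them. The count was 1 without epididymal normal-diet replicate 0, inguinal normal-diet replicate 2 or inguinal high-fat replicate 0. By limma it was 0 without epididymal normal-diet replicate 1, epididymal high-fat replicate 0 or 2, or inguinal high-fat replicate 1 or 2, with 6 to 8 members at an unadjusted p under 0.05.

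Col28a1 (ENSMUSG00000068794, chromosome 6), known near the basement membranes of Schwann cells, was the 1 member of these 3 whose values moved in opposite ways. Its level was 1.38, 2.28 and 1.12 FPKM in epididymal normal-diet and 0.0331, 0.553 and 0.136 in high-fat libraries, a fall (log2 -1.52, SE 0.37, adjusted p = 0.0125). In inguinal libraries it had 0.476, 0.386 and 0.555 on the normal diet and 0.612, 1.27 and 1.98 FPKM with high-fat feeding (log2 0.81, SE 0.37, adjusted p = 0.146). The groups did not overlap in either depot, but the inguinal difference did not pass, and the epididymal call was lost without normal-diet replicate 1 or high-fat replicate 0 (adjusted p = 0.0548 and 0.0625). The 4 Schwann markers summed to 6.04 to 8.58 FPKM in epididymal normal-diet, 13.8 to 15.0 in epididymal high-fat, 17.8 to 29.5 in inguinal normal-diet and 19.0 to 26.1 in inguinal high-fat libraries, with Sox10 at 0 in the epididymal high-fat group. Of the 3 tested, 1 rose in epididymal and 0 passed in inguinal adipocytes by limma. Their part in the Col28a1 values was not tested.

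**Figure D3:**
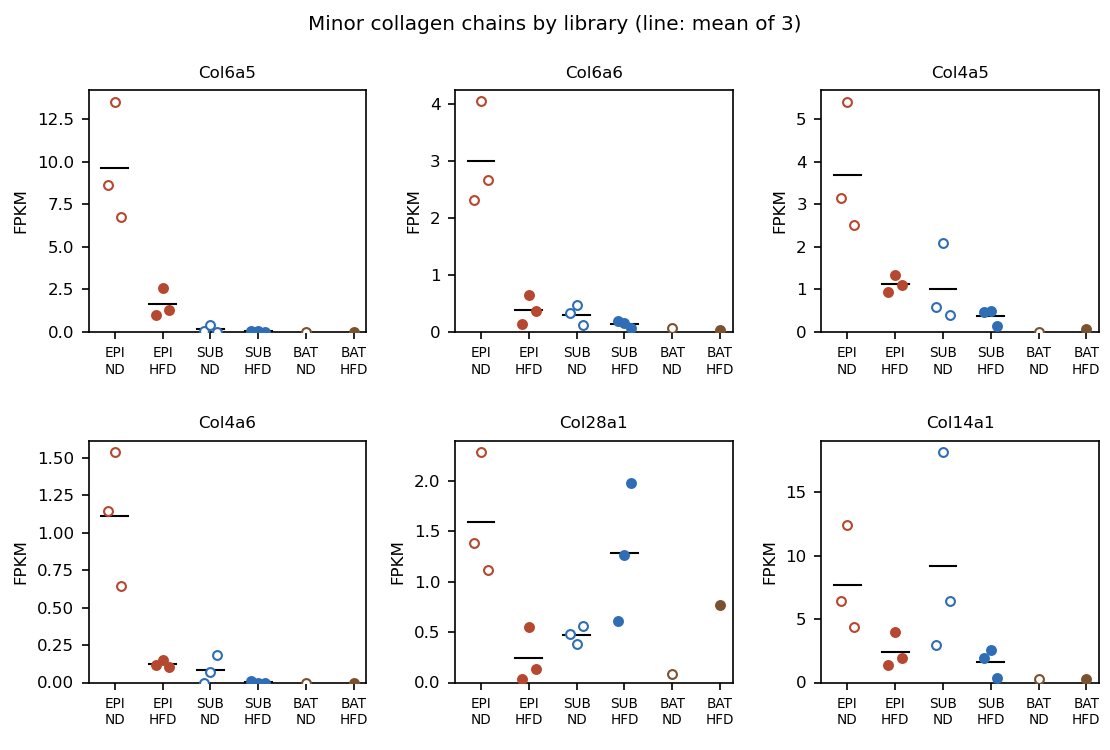
FPKM of 6 minor collagen genes in each library (EPI epididymal, SUB inguinal, BAT brown, ND normal diet in open and HFD high-fat diet in filled points), with the mean of 3 libraries as a line. Col6a5, Col6a6, Col4a5 and Col4a6 are highest in the 3 epididymal normal-diet libraries, and Col14a1 is highest in inguinal normal-diet replicate 1.

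The multiplexins rose in both depots, and both genes kept these calls under every setting tried. Col15a1 (ENSMUSG00000028339, chromosome 4, 47207655 to 47313167) stood at 51.4, 64.5 and 66.6 FPKM in epididymal normal-diet libraries and at 379, 297 and 437 on the high-fat diet (log2 2.59, SE 0.23, adjusted p = 2.5e-05). In inguinal libraries it stood at 30.5, 56.2 and 42.9 on the normal diet and 303, 296 and 237 FPKM with high-fat feeding (log2 2.71, SE 0.23, adjusted p = 4.8e-05). The means rose from 60.8 ± 8.23 to 371 ± 70.0 and from 43.2 ± 12.9 to 278 ± 36 FPKM (SD, n = 3 each), by factors of 6.1 and 6.45. The lowest high-fat library was over 4 times the highest normal-diet library in each depot. By mean FPKM Col15a1 moved from rank 5 to rank 2 among epididymal collagen genes and from rank 7 to rank 2 among inguinal ones.

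Col18a1 (ENSMUSG00000001435, chromosome 10, 77052178 to 77166530), from whose protein endostatin is cut, stood at 16.7, 27.1 and 30.6 on the normal diet and 96.5, 95.9 and 132 FPKM with high-fat feeding in epididymal libraries (log2 2.13, SE 0.34, adjusted p = 9.2e-04), and at 10.3, 27.5 and 12.1 on the normal diet and 65.5, 88.6 and 82.4 FPKM with high-fat feeding in inguinal ones (log2 2.34, SE 0.34, adjusted p = 0.00111). The diets again did not overlap in either depot. Col15a1, Col18a1 and Col16a1 were the 3 inguinal calls kept under every setting tried, and Col4a2 and Col5a3 were kept besides them in every fit without 1 library.

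Of the fibril-associated chains, Col16a1 and Col12a1 rose from low levels. Col16a1 (ENSMUSG00000040690, chromosome 4) had 2.12, 3.96 and 3.79 on the normal diet and 25.8, 21.4 and 27 FPKM with high-fat feeding in epididymal (log2 2.77, SE 0.33, adjusted p = 1.3e-04), and 1.86, 2.67 and 0.712 on the normal diet and 13.2, 12.7 and 10.6 FPKM with high-fat feeding in inguinal libraries (log2 2.60, SE 0.33, adjusted p = 4.8e-04). Col12a1 (ENSMUSG00000032332, chromosome 9) had 0.502, 1.36 and 0.52 on the normal diet and 14, 12.8 and 13.3 FPKM with high-fat feeding in epididymal libraries, where its difference of log2 3.48 (SE 0.41, adjusted p = 0.00014) was the largest among the members. In inguinal libraries it had 0.556, 3.37 and 1.06 on the normal diet and 4.99, 6.97 and 4.84 FPKM with high-fat feeding (log2 1.70, SE 0.41, adjusted p = 0.0146). The diets did not overlap for either gene in either depot, and the inguinal call of Col12a1 was lost in 1 of 6 fits without 1 library.

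Col14a1 (ENSMUSG00000022371, chromosome 15), which binds fibrils together with decorin, went the other way. It had 6.39, 12.4 and 4.37 on the normal diet and 1.38, 4.01 and 1.91 FPKM with high-fat feeding in epididymal libraries, which did not pass (log2 -1.47, SE 0.64, adjusted p = 0.136) except with the replicate block (0.0316) or array weights (0.0158), and 2.93, 18.1 and 6.39 on the normal diet and 1.96, 2.56 and 0.354 FPKM with high-fat feeding in inguinal ones, which did (log2 -2.03, SE 0.64, adjusted p = 0.0437). The inguinal call was lost in 5 of 6 fits without 1 library. Of the 12 fibroblast and preadipocyte markers, which include decorin (Dcn), 7 fell in epididymal and 8 in inguinal adipocytes, and 0 rose in either. Their sum went from 690 to 1171 FPKM in epididymal normal-diet libraries to 135 to 206 FPKM on the high-fat diet, and from 674 to 1365 to 192 to 270.0 FPKM in inguinal ones, with none at 0. Their part in the Col14a1 and fibrillar values was not tested.

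The network collagens were scarcely present. Col8a1, an endothelial matrix chain, was the 1 network gene tested, at means of 2.17 FPKM in epididymal normal-diet, 1.16 in epididymal high-fat, 2.00 in inguinal normal-diet and 1.72 in inguinal high-fat libraries, with no call in either diet contrast (adjusted p = 0.251 and 0.811). Col8a2 and Col10a1, a chain of growth plate cartilage, did not reach the level for testing. The 23 members not described one by one, 16 untested and 7 tested, had at most 2.86 FPKM in any library, which Col8a1 reached. The 7 tested ones (Col8a1, Col11a2, Col13a1, Col23a1, Col26a1, Col27a1 and Col4a4) passed in no comparison in the fit reported. Some did in other fits, such as the 2 members lower in epididymal adipocytes on the normal diet without inguinal normal-diet replicate 1.

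As shares of the summed FPKM of all 44 genes in a library, the fibrillar class went from 36.4% ± 3.93 to 22.7% ± 2.17 in epididymal and from 53.8% ± 7.25 to 28.9% ± 0.960 in inguinal libraries (SD, n = 3 each). Types I and III alone went from 27.7% ± 4.80 to 9.58% ± 2.13 and from 46.3% ± 7.57 to 15.2% ± 1.16. The type VI share went from 15.2% ± 1.5 to 26.3% ± 1.22 in epididymal and from 11.9% ± 0.856 to 15.6% ± 0.955 in inguinal libraries. The multiplexin share went from 11.1% ± 2.57 to 19.4% ± 2.74 and from 6.91% ± 2.58 to 20.2% ± 3.24. The basement membrane share moved in opposite ways in the depots, from 34.9% ± 3.25 to 29.8% ± 0.320 in epididymal and from 25.4% ± 4.23 to 33.8% ± 2.32 in inguinal libraries. Shares of one whole move against each other, so they carry no test.

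The sum itself was 808 FPKM on average in epididymal normal-diet libraries and 2480 on the high-fat diet, a factor of 3.07 with no overlap. In inguinal libraries it was 1042 and 1793 FPKM, a factor of 1.72 with overlap, and 3.09 without normal-diet replicate 1, which alone reached 1965 FPKM. The fibrillar sum in inguinal libraries moved by a factor of 0.878, and of 1.78 without that library. Its direction therefore rested on that library, while the multiplexin sum moved by factors of 5.6 in epididymal and 5.97 in inguinal libraries without overlap.

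**Figure D4:**
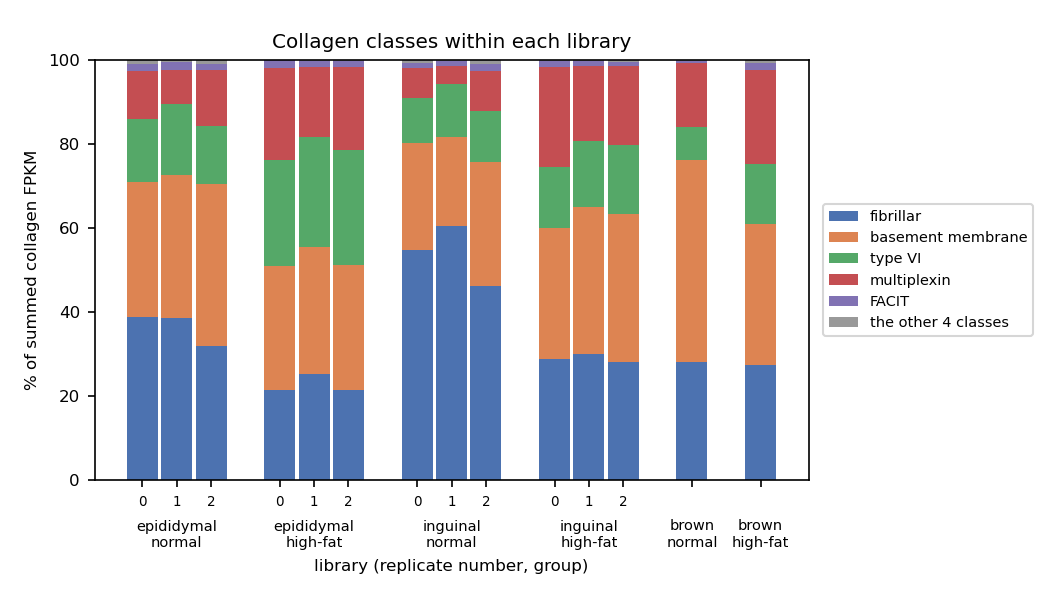
Each bar is 1 library and splits its summed collagen FPKM, set to 100%, by class, and the network, transmembrane, anchoring fibril and remaining classes are joined in grey. The fibrillar share (blue) is lower and the multiplexin share (red) higher in every high-fat than in every normal-diet library of the same white depot.

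The chain ratios within a library, which do not depend on how a library was scaled, differed by diet for type I. Col1a1 to Col1a2 was 0.406, 0.425 and 0.241 in epididymal normal-diet and 1.37, 1.08 and 1.08 in high-fat libraries. In inguinal libraries it was 0.698, 0.700 and 0.740 on the normal and 1.41, 1.22 and 1.32 on the high-fat diet. The geometric mean moved by a factor of 3.38 in epididymal and 1.84 in inguinal adipocytes, with no overlap in either (exact two-sided permutation test, p = 0.1 each, the smallest that 3 against 3 can give, 0.145 after Benjamini-Hochberg adjustment over 16 ratio tests). The RNA of these partner chains of 1 helix thus did not keep one ratio across libraries, and no p under 0.05 was within reach. On the normal diet the ratio was lower in epididymal than in inguinal libraries (factor 0.486, exact p = 0.1), and on the high-fat diet the depots overlapped.

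The other ratios moved less. Col4a1 to Col4a2 had means of 1.56 and 1.30 in epididymal and 1.77 and 1.32 in inguinal libraries on the normal and high-fat diet, without overlap in either depot (exact p = 0.1 each). The ratio of Col6a1 to Col6a2 had means of 1.06 and 0.927 in epididymal and 1.06 and 0.922 in inguinal libraries, again without overlap (exact p = 0.1 each). Col6a3 to Col6a1 separated the depots: it was 0.305, 0.399 and 0.417 in epididymal and 0.852, 0.882 and 0.792 in inguinal normal-diet libraries, and 0.211, 0.269 and 0.212 against 0.851, 0.671 and 0.525 on the high-fat diet. Inguinal ratios were 2.27 and 2.92 times the epididymal ones (exact p = 0.1 on each diet).

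**Figure D5:**
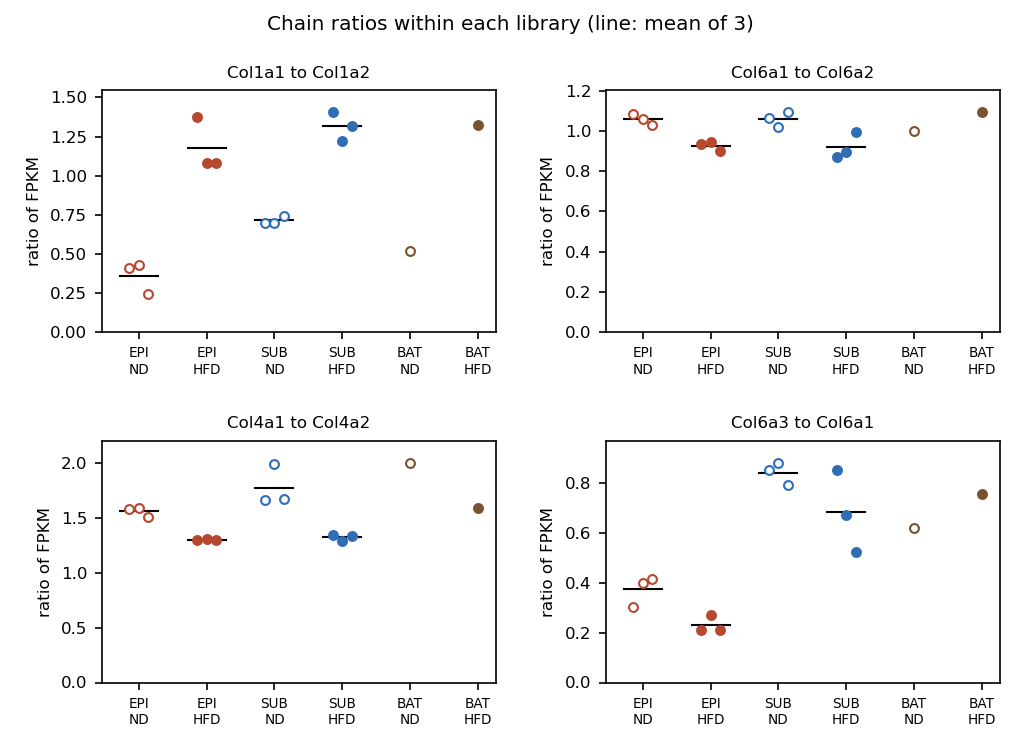
Ratio of FPKM of 2 collagen genes in each library (EPI epididymal, SUB inguinal, BAT brown, ND open and HFD filled points), with the mean of 3 libraries as a line. The ratio of Col1a1 to Col1a2 is above 1 in all 7 high-fat libraries and below 1 in all 7 normal-diet ones, and Col6a3 to Col6a1 is higher in every inguinal than in every epididymal library.

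Between the white depots few members differed. On the normal diet 4 of 28 passed, all higher in epididymal adipocytes (14.3%, against 6.51% of all genes, of which 2.36% were higher and 4.15% lower). They were Col6a5 (log2 3.95, SE 0.36, adjusted p = 3.2e-04), Col6a6 (log2 2.12, SE 0.32, adjusted p = 0.00441), Col4a5 (log2 1.57, SE 0.41, adjusted p = 0.0412) and Col4a6 (log2 1.44, SE 0.30, adjusted p = 0.0186), whose values are given above. Of these 4, Col6a5, Col6a6 and Col4a6 were under 0.5 FPKM in every inguinal library and were tested only through epididymal ones, so the count and its direction are no support for a depot difference of collagen genes. The epididymal and inguinal normal-diet libraries did not overlap for these 4 genes, and for 9 of the 28 members in all, against 19.1% of all genes. The call of Col4a5 was lost in 5 and that of Col4a6 in 2 of 6 fits without 1 library. The count was 10 without inguinal normal-diet replicate 1 (8 higher, with Col5a1, Col15a1, Col16a1 and Col18a1 among them, and 2 lower), 2 without epididymal normal-diet replicate 0 or 1, and 8 (2 higher and 6 lower) without inguinal normal-diet replicates 0 and 2. The lists in the depot and diet contrasts share the epididymal normal-diet libraries and are not independent.

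Mesothelial cells, which line the surface of epididymal fat, showed a depot difference in the same libraries. All 6 mesothelial markers tested were higher in epididymal adipocytes on the normal diet and 5 of 6 on the high-fat diet. They summed to 10.3 to 17.8 FPKM in epididymal normal-diet and 6.8 to 13.4 in epididymal high-fat libraries, against 0.371 to 0.572 in inguinal normal-diet and 0.0538 to 0.154 in inguinal high-fat ones. Msln and Upk3b were at 0 in both inguinal groups. Their part in the Col4a5, Col4a6, Col6a5 and Col6a6 values was not tested.

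On the high-fat diet 2 of 28 passed, 1 higher and 1 lower in epididymal adipocytes (7.14%, against 10.6% of all genes, of which 7.08% were higher and 3.53% lower), which is below the background. The depots did not overlap for 12 of the 28 members, against 38.4% of all genes. Col6a5 was higher (log2 1.90, SE 0.36, adjusted p = 0.00583) and Col28a1 lower (log2 -1.26, SE 0.37, adjusted p = 0.0495). Col6a5 was under 0.5 FPKM in every inguinal library and was tested only through epididymal ones, so its direction was favoured by its selection. With the replicate number as a block, which is fitted over all 12 white libraries and is no paired depot test, 5 passed, 4 higher and 1 lower. The 3 added were Col6a1 (adjusted p = 0.0173), Col6a2 (0.0205) and Col12a1 (0.043). In the fit without the block these 3 had log2 1.48, 1.47 and 1.20 and adjusted p of 0.0545, 0.0612 and 0.0926, and no epididymal value overlapped an inguinal one for any of them. Without epididymal high-fat replicate 0 or 2, or inguinal high-fat replicate 1 or 2, Col28a1 did not pass and 1 gene was left. Macrophage markers were higher in the epididymal high-fat libraries (9 of 12 tested, summed 1223 to 2190 FPKM against 254 to 423 in inguinal ones, with none at 0), and their part was not tested.

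Brown adipocytes had 1 library per diet, so their values carry no test. The mean of both libraries reached 1 FPKM for 16 members, of which 10 were at least 2-fold higher on the high-fat diet and 0 lower. Of 11297 genes at that level 19.2% passed 2-fold, 12.7% higher and 6.49% lower. The median log2 ratio of the 16 members was 1.08, against 0.07 for all of these genes. Col1a1 went from 4.59 to 24.8 FPKM and Col16a1 from 0.484 to 7.20 FPKM, 5.41-fold and 14.9-fold. Col6a3 (8.49 and 25.9 FPKM), Col6a1 (13.7 and 34.4), Col18a1 (12.5 and 32.3) and Col15a1 (54.7 and 113) were 2.06-fold to 3.05-fold higher. The type IV chains stayed within 2-fold, Col4a1 at 143 and 133 and Col4a2 at 71.4 and 83.7 FPKM, as did Col5a3 at 35.8 and 34.5 FPKM and Col3a1 at 55 and 61.0 FPKM. The 11 endothelial markers summed to 154 and 515 FPKM, the 12 fibroblast markers to 123 and 178 FPKM and the 12 macrophage markers to 33.5 and 179 FPKM in these 2 libraries (Fcgr1 at 0 on the normal diet). Their part was not tested, and brown fat was digested for 40 min against 20 min for white fat.

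Genes that make, trim and join collagen chains were followed in lists. Of all genes tested, 19.5% passed in each diet contrast. In epididymal adipocytes 12.2% rose and 7.35% fell, and in inguinal ones 9.3% rose and 10.2% fell. The list counts below and the marker counts for diet above are to be read against these shares. Some lie near them, such as 1 of 5 cross-linking enzymes. Of 18 genes of chain modification and folding tested, 5 rose and 2 fell in epididymal and 4 rose and 1 fell in inguinal adipocytes. Serpinh1, the collagen chaperone HSP47, rose from 108.5 ± 22.7 to 398 ± 45.5 FPKM (log2 1.89, SE 0.31, adjusted p = 0.00129) and from 113 ± 62.3 to 277 ± 44.6 FPKM (log2 1.42, SE 0.31, adjusted p = 0.00921; SD, n = 3 each). Colgalt1, which adds galactose to hydroxylysine, rose in epididymal (log2 1.40) and P3h1, a prolyl hydroxylase, in inguinal adipocytes (log2 1.58). P3h3 of the same family fell in both (log2 -1.25 and -1.26). At most 2 genes each way are named per list and depot, by the largest log2 difference. A gene named for 1 depot may thus also have passed in the other.

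Of 6 procollagen processing genes, 3 rose and 0 fell in epididymal and 2 rose and 0 fell in inguinal adipocytes by limma. Adamts2, which removes the amino-terminal propeptide, rose by log2 1.45 and 1.60, and Pcolce2, an enhancer of carboxy-terminal cleavage, by 2.45 and 1.72. Of 5 cross-linking enzymes only Lox, lysyl oxidase, passed, and it rose from 11.7 to 36.5 FPKM in epididymal (log2 1.60, adjusted p = 0.00379). It likewise rose from 15.3 to 53.8 FPKM in inguinal adipocytes (log2 1.90, adjusted p = 0.00221).

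Among 7 genes of collagen breakdown and uptake, 3 rose and 2 fell in epididymal and 1 rose and 2 fell in inguinal adipocytes. Mrc2, the endocytic receptor for cleaved collagen, rose from 2.38 to 56.5 FPKM in epididymal (log2 4.32, SE 0.34, adjusted p = 1.1e-05). It rose again from 2.21 to 39.0 FPKM in inguinal adipocytes (log2 4.0, SE 0.34, adjusted p = 4.4e-05). That is a larger log2 difference than that of any collagen gene in either depot. Ctsk, the lysosomal collagenase cathepsin K, rose in epididymal adipocytes (log2 3.06), and the gelatinases Mmp9 (log2 -2.68 and -1.91) and Mmp2 (log2 -1.52 and -1.74) fell in both.

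Of 9 collagen receptors tested, 2 rose and 2 fell in epididymal and 2 rose and 0 fell in inguinal adipocytes. Ddr1, a collagen-activated tyrosine kinase, rose in both (log2 1.73 and 1.81). Lair1, an inhibitory collagen receptor of leukocytes, rose in epididymal adipocytes (log2 2.27), where 5 of 12 macrophage markers rose too, with sums of 487 to 967 FPKM on the normal and 1223 to 2190 FPKM on the high-fat diet, none at 0, and their part in it was not tested. Itga1 and Antxr1 fell there (log2 -0.81 and -1.68), and the integrin chain Itgb1 rose in inguinal adipocytes (log2 0.73).

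Of 13 partners of type IV collagen in the basement membrane, 5 rose and 2 fell in epididymal and 5 rose and 0 fell in inguinal adipocytes. Lamb3, a laminin chain, rose in both (log2 2.39 and 1.86). The next largest rise was that of Hspg2 (perlecan) in epididymal adipocytes (log2 1.65). In inguinal adipocytes it was that of Sparc, which binds type IV collagen, from 953 to 2800 FPKM (log2 1.65). Whether Hspg2 and Sparc also passed in the other depot is not given here. The laminin chains Lama2 and Lamc3 fell in epididymal adipocytes (log2 -2.22 and -1.74). Of 7 fibril-associated proteoglycans, 1 rose and 3 fell in epididymal and 2 rose and 2 fell in inguinal adipocytes. Prelp rose (log2 1.64 and 2.25), and Dcn (decorin, log2 -2.92 and -1.83) and Ogn (log2 -2.92 and -1.35) fell in both depots.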

How the data were processed

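RNA of 14 adipocyte libraries was sequenced by the authors. The submitters' processing notes name TopHat2 2.0.9, Cuffdiff 2.1.1 and the build mm10. For each gene the authors deposited 1 FPKM value per library, a unit read from these tools and from the values, with the annotation, strand setting and scaling not given in the sources used here. Read counts cannot be recovered, so depth is unknown and precision rests on the spread between libraries. A value listed at 0 can be a failed estimate. Reads from the overlapping starts of Col4a1 and Col4a2 cannot be assigned to one of them without strand.

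The collagen genes, their classes and the gene lists were chosen with earlier results of these data known. Symbols were matched to 36638 of 38553 identifiers, and groups were taken from the sample titles. limma 3.58.1 in R 4.3.3 (trend) was fitted to log2(FPKM + 0.5) of the 12 white libraries, over 14959 genes with at least 0.5 FPKM in at least 3 libraries, with 4 group means and 8 residual degrees of freedom. In 5 contrasts a two-sided Benjamini-Hochberg adjusted p under 0.05 over all genes tested was a call, and the model was tested on simulated data. Log2 differences understate changes of low genes. Chain ratios were compared by exact permutation tests in SciPy 1.17.1. Values are given for collagen genes whose mean in any group reached 20 FPKM, or that were called in a diet contrast or in their difference and reached 1 FPKM in a group, and for up to 2 called genes each way of each list. The promoters shown were chosen after these results were seen, and the shared start of Col4a1 and Col4a2, which lies inside both transcripts, is not shown.

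Whether a replicate number pairs epididymal with inguinal libraries was checked by correlating, over genes, how far each library of a pair lay from its own group mean. Among high-fat libraries r was 0.184, 0.111 and 0.146. Across diets, where the mice differ, r lay between 0.007 and 0.272, so such values cannot show pairing. The numbers were not taken to pair libraries, and no label tells what a number stands for. The blocked result is given beside that contrast as a change of setting only. Settings varied were the pseudocount (0.1 and 1), the filter (none, or 2 FPKM), quantile normalization, the groups fitted, array weights, the replicate block and each library left out, and, chosen after seeing the data, scaling to nuclear protein-coding FPKM.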

Additional observations from a re-analysis of the deposited data

Results flagged for a closer look

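Of the collagen genes, 3 had a diet effect that differed between epididymal and inguinal adipocytes by the interaction term of limma. The difference of the effects was log2 -2.05 for Col6a5 (adjusted p = 0.0323), -1.68 for Col6a6 (adjusted p = 0.0434) and -2.33 for Col28a1 (adjusted p = 0.0222). Col6a5 and Col6a6 fell in epididymal adipocytes and were under 0.5 FPKM in every inguinal library, so they were tested only through epididymal ones. Col28a1 fell in epididymal adipocytes and had a positive value that did not pass in inguinal ones. In 12 fits that each left out 1 library, the call of Col6a5 was lost in 9, that of Col6a6 in 11 and that of Col28a1 in 5.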

How the results depend on the processing

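No value of a called gene changed sign under any setting. The count of collagen genes called in epididymal adipocytes (17) was 13 to 16 when 1 library was left out and stayed within a factor of 1.5 under every other setting. The inguinal count (12) was 7 with no filter, 4 with only the groups compared and 7 without inguinal normal-diet replicates 0 and 2, and 5 to 13 when 1 library was left out. The count for the difference of the diet effects (3) was 1 with a pseudocount of 0.1, with no filter and with a filter of 2 FPKM, 6 without those 2 libraries (6 higher and 0 lower, against 0 higher and 3 lower, with 0 genes shared), and 0 to 3 when 1 library was left out (where limma called 0, between 6 and 8 had an unadjusted p under 0.05). The depot count on the normal diet (4) was 2 with a filter of 2 FPKM, 1 with only the groups compared, 7 with array weights, 8 without those 2 libraries, and 2 to 10 when 1 library was left out. The depot count on the high-fat diet (2) was 1 with no filter, with a filter of 2 FPKM and with quantile normalization, 7 with only the groups compared, 9 with array weights, 7 without those 2 libraries, and 1 to 2 when 1 library was left out. Where fewer groups or libraries were fitted the spread rested on fewer residual degrees of freedom, and the cause of the other changes was not tested. With the replicate number as a block the counts were 19, 14, 4, 5 and 5 in the order above. Same-numbered deviations correlated at 0.180, 0.082 and 0.162 in epididymal adipocytes across diets and at 0.272, 0.098 and 0.007 in inguinal ones. Between depots on the normal diet the values were 0.133, 0.029 and 0.076. Neither these nor the values among high-fat libraries were taken to show pairing. Over all genes, the inguinal diet contrast called 2914 in the fit reported, 713 with only the groups compared, 999 without inguinal normal-diet replicates 0 and 2 and 4727 without replicate 1, and the depot contrast on the normal diet called 974 and, with only the groups compared, 14. Planned scaling to the nuclear sum was not run, because 1 feature without a symbol made up 28.6% to 91.2% of that sum. What depth limits cannot be said, since it is unknown.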
